A study of Homo sapiens with 15 samples.

Results

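CDK8, cyclin C (CCNC), MED12 and MED13 form the kinase module of the human Mediator complex, and CDK19 and MED13L are the paralogs that can take the places of CDK8 and MED13. These 6 genes were followed across xenograft tumors of HCT116, a human colon cancer cell line, on Agilent expression arrays. Every array probe whose RefSeq accession belongs to 1 of the 6 genes was taken, without regard to its signal. This gave 6 of the 19483 genes that RefSeq names on the array and 7 of its 34127 probes, 2 for CDK8 and 1 for each other gene, and all 7 were well above background on all 15 arrays.

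HCT116 cells were transfected with an expression construct and injected under the skin of athymic nude mice, and the tumors that grew were excised at a single time point for RNA isolation. The 5 constructs were empty vector, wild type Myc-tagged MOAP-1, Myc-tagged MOAP-1 with the lysine change K264R or K278R, and wild type HA-tagged RASSF1A, with 3 tumors for each construct and 1 tumor per array. All tumors, those with vector included, came from 1 cell line that has its own MOAP-1 and RASSF1A. The study transfected these cells transiently and injected both flanks of each mouse. It reported construct expression in culture for a limited number of days, and proposed that this is enough to set the growth path. Whether the tumors still expressed the construct at excision was not established here, and groups are named by the construct transfected. The labels do not tie tumors to mice, so that tumors of a construct may share an animal and the p values measure the spread between tumors only. MOAP-1 is a pro-apoptotic protein that binds Bax, and RASSF1A is a tumor suppressor that binds MOAP-1. The comparisons asked how the tumors of each construct differed from vector tumors, and how wild type MOAP-1 differed from its mutants and from RASSF1A.

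Mediator carries signals from DNA-bound transcription factors to RNA polymerase II. The kinase module binds it reversibly: cyclin C activates CDK8 or CDK19, MED12 couples the cyclin-kinase pair and stimulates its activity, and MED13 or MED13L tethers the module to the core complex. CDK8 phosphorylates transcription factors, is known as an oncogene in colorectal cancer that acts with beta-catenin, and has been linked to p53 target genes.

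Signals are given as the log2 of the background-corrected spot intensity relative to the 75th percentile of its array, which was set to 0. A value of -1 thus stands for a spot at 50 percent of that percentile, and levels of different probes are not comparable. A probe was called when its change reached 1.5-fold, or 0.58 on the log2 scale, with a Benjamini-Hochberg adjusted p below 0.05 from limma over the 30585 probes kept on the array. Arrays differed in brightness, with 75th percentiles of 496 to 1402, and 85.1 to 93.1% of their spots passed the scanner software's background test. The MOAP1 probe averaged 0.59 ± 0.21 (SD, n = 3) with MOAP-1, 0.27 ± 0.18 with K264R and 0.46 ± 0.06 with K278R, against -0.28 ± 0.22 with vector. The RASSF1 probe averaged 1.57 ± 0.02 in the tumors labelled RASSF1A and 1.68 ± 0.15 with vector, and the files do not state whether either probe binds the introduced transcript. Human colon epithelial markers, such as EPCAM and CDH1, were well above background on all arrays (9 of 9 genes), with a mean log2 signal between 1.76 and 2.13 in every tumor.

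The first CDK8 probe (A_23_P139958) gave the highest CDK8 signals in the tumors with MOAP-1 or K264R. The CDK8 gene, a kinase subunit gene of the module, lies at chr13:26254129-26405238 on GRCh38.p14. The log2 signal of this probe was -2.32, -2.39 and -2.08 in the vector tumors. It was -0.95, -0.94 and -1.03 in the MOAP-1 tumors. All 3 MOAP-1 tumors lay more than 1 log2 unit above all 3 vector tumors, and 25% of the kept probes separated the groups in this direction. The K264R tumors gave -1.02, -1.0 and -1.07, close to the MOAP-1 tumors and above every vector tumor, as for 22.8% of probes. The K278R tumors spread widely, at -1.63, -2.16 and -1.13, with tumor 2 inside the vector range and tumor 3 next to the K264R tumors. The RASSF1A tumors gave -2.02, -2.17 and -2.13 and overlapped with vector.

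CDK8 rose 2.44-fold with MOAP-1 against vector at this probe (log2 change 1.29, standard error 0.19, adjusted p = 0.000434). The change was higher than that of 98.2% of the kept probes. It rose 2.35-fold with K264R (log2 change 1.23, standard error 0.19, adjusted p = 0.000377) and 1.54-fold with K278R (log2 change 0.62, standard error 0.19, adjusted p = 0.0332). With RASSF1A the log2 change was 0.16 (95% interval -0.25 to 0.56, adjusted p = 0.766). These 4 comparisons share the vector tumors. The study named CDK8 from these arrays, so that its rise with MOAP-1 is not independent evidence of that direction. In bulk tumors, more cells that express a gene and more RNA per cell cannot be told apart.

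**Figure D1:**
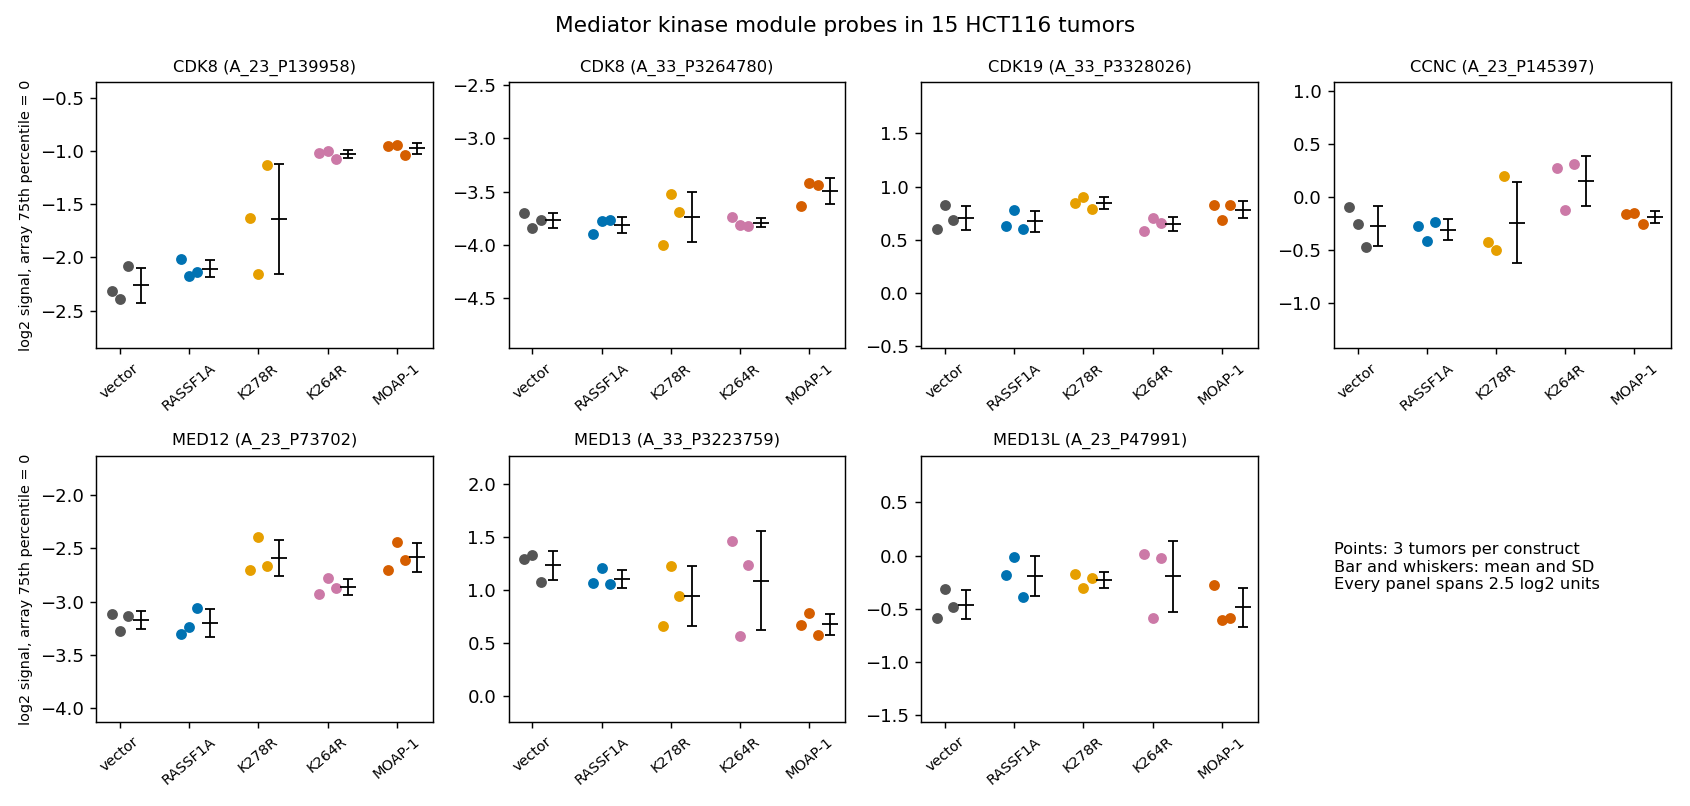
Log2 signal relative to the array's 75th percentile (vertical axis) for the 7 probes of the module in the 3 tumors of each construct (points), with the mean and SD beside them; every panel spans 2.5 log2 units. CDK8 at A_23_P139958 averaged -2.26 with vector and -0.98 with MOAP-1, whereas CDK19 stayed between 0.58 and 0.91 in all tumors.

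Direct comparisons gave the place of RASSF1A and of the mutants. CDK8 at this probe was 2.19-fold higher with MOAP-1 than with RASSF1A (log2 difference 1.13, standard error 0.19, adjusted p = 0.000512) and 2.11-fold higher with K264R than with RASSF1A (log2 difference 1.08, adjusted p = 0.000639, 23.4% of probes called). MOAP-1 and K264R differed by 0.06 (95% interval -0.35 to 0.46, adjusted p = 0.944). MOAP-1 was 0.66 above K278R (95% interval 0.26 to 1.07, adjusted p = 0.445), and the groups did not overlap, as was the case for 4.84% of probes in that direction. K264R was 0.61 above K278R (adjusted p = 0.0959, 0.575% of probes called). In the order vector, RASSF1A, K278R, K264R, MOAP-1, no neighboring pair of constructs passed the adjusted p, and only constructs further apart did.

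The K278R result rested on the vector and K278R tumors that were taken. Without K278R tumor 3 the log2 change of CDK8 against vector was 0.37 (adjusted p = 0.105), and it also lost its call without K278R tumor 1 (0.62, adjusted p = 0.0693), vector tumor 1 (0.60, adjusted p = 0.0825) or vector tumor 2 (0.56, adjusted p = 0.120). With K278R tumor 3 left out, CDK8 was called higher with MOAP-1 than with K278R (0.92, adjusted p = 0.0167). The MOAP-1 and K264R rises kept their calls whichever tumor was left out, with log2 changes of 1.22 to 1.38 and 1.17 to 1.32.

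Array brightness moved with this CDK8 probe in part. The 75th percentile of the signal was 631 to 768 on the vector arrays and 613 to 818 with RASSF1A. It was 799.6 to 1022 with MOAP-1 and 1176 to 1402 with K264R. The mean CDK8 signal was -1.03 on the K264R arrays and -0.98 on the MOAP-1 arrays. On K278R arrays 1, 2 and 3 the percentile was 931, 496 and 1152, the same order as their CDK8 signals. With the log2 of this percentile as a covariate, an alternative chosen after seeing the data, the rise was 1.00 with MOAP-1 (adjusted p = 0.000958), 0.66 with K264R (adjusted p = 0.0258) and 0.46 with K278R (adjusted p = 0.0224), the last below 1.5-fold. MOAP-1 array 2 (799.6) was close in brightness to vector array 3 (768), RASSF1A array 1 (784) and RASSF1A array 3 (818). Its CDK8 signal was 1.14, 1.08 and 1.19 higher than theirs. These were single arrays, picked by hand, and MOAP-1 array 2 lay on another slide than the arrays it was set against. The cause of the CDK8 difference was not tested.

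The mean log2 signal of 5 proliferation markers was 0.75 to 0.79 in the vector tumors, 0.92 to 1.04 with RASSF1A, 0.99 to 1.29 with K278R, 1.25 to 1.38 with MOAP-1 and 1.29 to 1.35 with K264R. At the brightest probe of each of the 5 genes, TOP2A (DNA topoisomerase II) and PCNA (the DNA polymerase clamp) rose with MOAP-1 (1.84 and 0.61). Both rose with K264R (2.11 and 0.69), TOP2A rose with K278R (0.94), and none of the genes fell. The other 3 were not called at that probe. There MKI67 gave -0.13 with MOAP-1 and -0.29 with K264R, CCNB1 -0.01 and -0.20, and MCM2 0.51 and 0.48. TOP2A thus carried much of the mean, which was taken at these probes. Counted at any kept probe, 3 of the 5 genes were higher with MOAP-1, 4 with K264R and 3 with K278R, and none was lower. MCM2 has 1 probe, so that a dimmer probe of MKI67 or CCNB1 was called higher with MOAP-1. Fibroblast markers (5 of 6 genes kept, 3 of them well above background on all arrays) ranged from -3.75 to -1.98 with vector, -2.57 to 0.29 with MOAP-1, -2.76 to -0.94 with K264R, -1.46 to -0.06 with K278R and -1.92 to -1.32 with RASSF1A. Their median change against vector was 1.89 with MOAP-1, 0.56 with K264R, 1.70 with K278R and 1.07 with RASSF1A, and the collagen gene COL1A1 rose with MOAP-1 (2.24) and the receptor gene PDGFRB with K278R (1.34). Of 5 leukocyte markers PTPRC, the gene of CD45, rose with MOAP-1 (0.72) and with K278R (0.69). At the brightest probe of each gene, none of 4 endothelial, 4 erythroid or 9 epithelial markers was called with MOAP-1 against vector. The fibroblast and leukocyte markers were read at that probe too. Counted at any kept probe, 1 of the 9 epithelial and 2 of the 5 fibroblast markers were higher with MOAP-1. No share of all genes counted this way is given here. The part of these kinds of cells in the CDK8 result was not tested.

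The second CDK8 probe (A_33_P3264780) was not called with any construct against vector. Its log2 signal was -3.70, -3.84 and -3.77 with vector, -3.63, -3.42 and -3.44 with MOAP-1 and -3.74, -3.82 and -3.82 with K264R. The 3 MOAP-1 tumors lay above all vector tumors, as for 25% of the kept probes, whereas the K264R tumors lay among the vector tumors. It read -4.00, -3.53 and -3.69 with K278R, on both sides of the vector range, and -3.90, -3.78 and -3.77 with RASSF1A. The log2 change was 0.27 with MOAP-1 (95% interval 0.03 to 0.52, adjusted p = 0.0844), -0.02 with K264R (adjusted p = 0.905), 0.03 with K278R (adjusted p = 0.863) and -0.04 with RASSF1A (adjusted p = 0.908). Against RASSF1A it was 0.32 higher with MOAP-1 (adjusted p = 0.0424), which is below 1.5-fold.

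The difference between the probes was tested on each array as the second probe minus the first. It was -1.38, -1.45 and -1.69 in the vector tumors, -2.68, -2.48 and -2.40 with MOAP-1 and -2.72, -2.82 and -2.75 with K264R. The changes against vector differed between the probes by 1.01 on the log2 scale with MOAP-1 (adjusted p = 0.00523) and by 1.25 with K264R (adjusted p = 0.00143). The same was called for 29.8% and 32.4% of the 5192 pairs of probes for a shared gene on the array, so that such a disagreement was common on these arrays. Between MOAP-1 and RASSF1A the probes differed by 0.81 (adjusted p = 0.0129, 36.5% of pairs called), and the differences between MOAP-1 and its mutants were not called (0.0193% of pairs with K264R, 0% with K278R). For K278R against vector the difference was -0.59 (adjusted p = 0.0815, 20.6% of pairs called) and for RASSF1A -0.20 (adjusted p = 0.753, 0% of pairs called).

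Both probes carry the same RefSeq accession in the array design, and the part of the transcript each probe binds was not analysed here. The second probe is the dimmer spot, with a processed signal of 43.0 to 99.3 across arrays (median 60.1), against 111 to 666 for the first (median 300.5). With array brightness as a covariate the probes differed by 0.64 with MOAP-1 (adjusted p = 0.00957) and by 0.50 with K264R (adjusted p = 0.101), the second without a call.

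**Figure D2:**
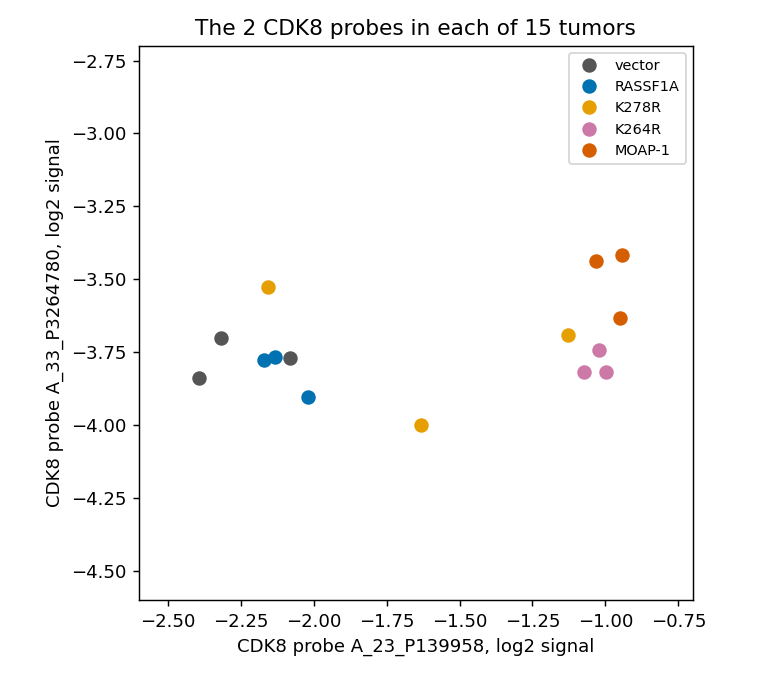
Log2 signal of the 2 CDK8 probes in each of the 15 tumors, with A_23_P139958 on the horizontal and A_33_P3264780 on the vertical axis at the same scale. Along the horizontal axis the MOAP-1 and K264R tumors (-1.07 to -0.94) stand apart from the vector and RASSF1A tumors (-2.39 to -2.02), whereas along the vertical axis all tumors lie between -4.00 and -3.42.

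MED12, the subunit that couples the kinase to the rest of the module, also rose with MOAP-1 (A_23_P73702; gene at chrX:71118596-71142450). Its log2 signal was -3.11, -3.27 and -3.13 with vector and -2.71, -2.44 and -2.61 with MOAP-1. The K264R tumors gave -2.93, -2.78 and -2.87 and the K278R tumors -2.70, -2.39 and -2.67. All 9 tumors with a MOAP-1 construct lay above all 6 tumors with vector or RASSF1A, the latter at -3.31, -3.24 and -3.06. Against vector 25%, 22.8% and 23.7% of all probes were likewise higher without overlap with MOAP-1, K264R and K278R, and 24.7%, 22.5% and 23.4% against RASSF1A. MED12 was 1.50-fold higher with MOAP-1 than with vector (log2 change 0.588, standard error 0.11, adjusted p = 0.00201), just past the 1.5-fold limit of 0.585. With K278R the change was 0.583 (adjusted p = 0.00496), just short of it, and with K264R 0.31 (adjusted p = 0.0442), or 1.24-fold.

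With RASSF1A MED12 differed from vector by -0.03 (95% interval -0.27 to 0.21). Against RASSF1A it was 1.53-fold higher with MOAP-1 (log2 difference 0.62, adjusted p = 0.000922) and 1.53-fold higher with K278R (0.61, adjusted p = 0.00154), where 16% of all probes were called. RASSF1A arrays 1 and 2 were scanned on another day than the other 13, and with scan day as a block the difference between MOAP-1 and RASSF1A was 0.47 without a call (adjusted p = 0.0616). MOAP-1 and K278R differed by 0.0047 (95% interval -0.24 to 0.25). MED12 was a dim spot (processed signal 64.9 to 191.6), and its log2 change between MOAP-1 and vector depended on the scaling. It was 0.45 with quantile normalization, 0.44 with the median of each array set to 0, and -0.56 (limma, adjusted p = 0.364) with the normexp background model. Normexp shifted the median change of all probes to -0.53 in this comparison. Without spots of extreme local background normexp gave MED12 0.20 (limma, adjusted p = 0.173). Leaving out MOAP-1 tumor 2 gave 0.51 and leaving out vector tumor 2 gave 0.54, in both cases below 1.5-fold. With array brightness as a covariate it was 0.68 (adjusted p = 0.00203).

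CDK8 and MED12 were thus the members called with MOAP-1, 2 of 7 probes where 16.6% of all kept probes were called in either direction. K264R had 1 of 7 called against 19.5% of all probes, K278R 1 of 7 against 10.9%, and RASSF1A 0 of 7 against 0%. With RASSF1A 12.1% of all probes had an unadjusted p below 0.05, and none of the 7 members did. Between MOAP-1 and RASSF1A 2 of 7 were called (21.2% of all probes). By limma no member was called between MOAP-1 and K264R (0.00327% of all probes), where the second CDK8 probe and MED12 had an unadjusted p below 0.05 as did 10.9% of all probes, or between MOAP-1 and K278R (0%), where the first CDK8 probe and 9.22% of all probes did. The methods' t-test, unadjusted and with the same fold limit, called 315 and 144 probes in these comparisons and 187 between RASSF1A and vector, none of them a member. Across the 5 constructs CDK8 at its first probe (adjusted p = 0.000261) and MED12 (adjusted p = 0.000881) passed the moderated F test, as did 43.4% of all probes, and the other 5 probes had adjusted p values of 0.142 to 0.290.

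**Figure D3:**
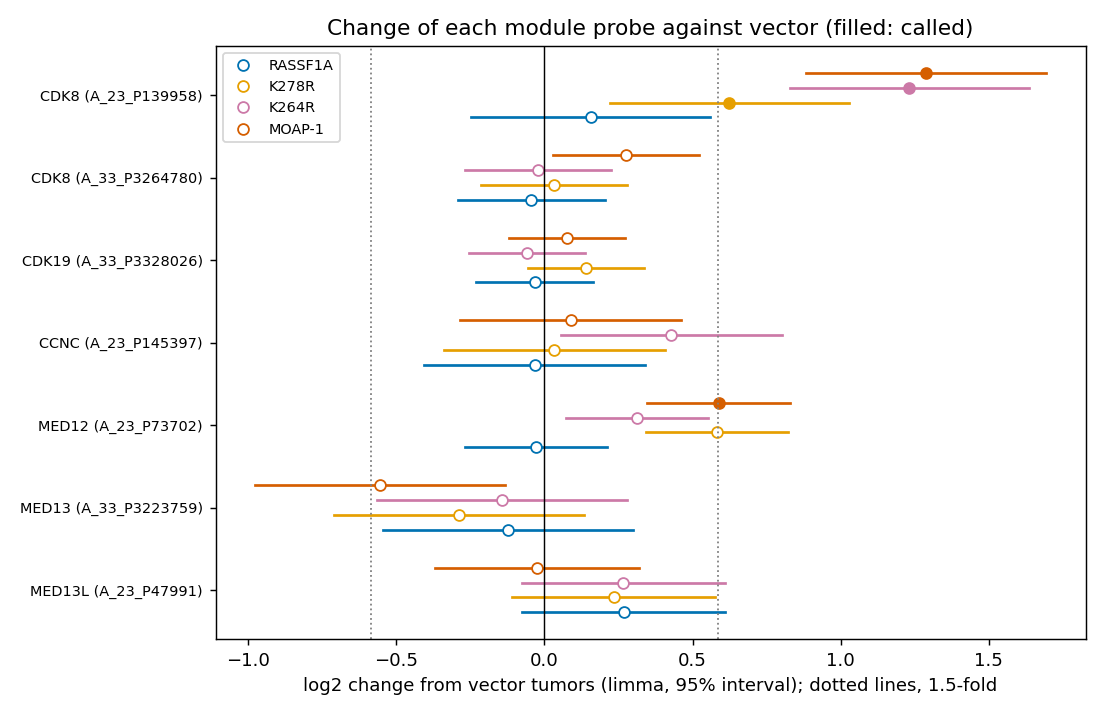
Log2 change of each module probe from the vector tumors (points) with its 95% interval from limma (lines) for MOAP-1, K264R, K278R and RASSF1A; filled points are called and dotted lines mark 1.5-fold. The CDK8 intervals at A_23_P139958 begin at 0.88 with MOAP-1 and 0.83 with K264R, whereas every RASSF1A interval includes 0.

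The 250 bases before the RefSeq start of CDK8 and of MED12, the members called with MOAP-1, are shown from the GRCh38.p14 table (5 of the 6 genes had an entry there). Capitals mark an E-box (CACGTG) and a GC box (GGGCGG or its reverse complement CCGCCC), motifs bound by MYC-like factors and by Sp1. The CDK8 window, chr13:26253879-26254128 on the plus strand, held the E-box beginning 200 bases and the GC box 119 bases before the start. The MED12 window, chrX:71118346-71118595 on the plus strand, held a reversed GC box 81 bases before the start. Both strands were searched, and among all 35116 windows of this length 6.34% held the E-box and 42.6% the GC box. Neither window held CCAAT (32% of windows), TATAAA (10.7%), CCGGAAG (8.52%) or TTTGGCGC (0.55%). Among members not called against vector, the MED13L window held an E-box and GC boxes and some CDK19 windows held GC boxes. The CCNC windows held neither motif. The matches describe these letters only.
CDK8: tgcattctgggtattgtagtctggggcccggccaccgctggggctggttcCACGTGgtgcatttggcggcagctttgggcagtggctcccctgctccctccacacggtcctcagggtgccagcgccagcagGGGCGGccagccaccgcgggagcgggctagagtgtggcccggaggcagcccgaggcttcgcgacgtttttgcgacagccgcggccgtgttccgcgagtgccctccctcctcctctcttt
MED12: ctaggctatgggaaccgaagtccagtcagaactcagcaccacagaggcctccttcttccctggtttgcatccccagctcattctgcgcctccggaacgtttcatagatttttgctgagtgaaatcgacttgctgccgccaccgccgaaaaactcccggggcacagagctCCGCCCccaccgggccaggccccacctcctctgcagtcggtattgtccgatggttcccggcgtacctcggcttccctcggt

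CDK19, the paralog of CDK8, varied least of the 7 probes (A_33_P3328026; gene at chr6:110609978-110815855). Its log2 signal was 0.60, 0.83 and 0.69 with vector and 0.83, 0.69 and 0.83 with MOAP-1, 2 ranges that overlap. K264R gave 0.58, 0.71 and 0.66, K278R 0.84, 0.91 and 0.79, and RASSF1A 0.63, 0.78 and 0.60. The 15 tumors spanned 0.33 log2 units. The change with MOAP-1 was 0.08 (95% interval -0.12 to 0.27), with K264R -0.06 (95% interval -0.25 to 0.14), with K278R 0.14 (95% interval -0.06 to 0.34) and with RASSF1A -0.03 (95% interval -0.23 to 0.16). All 4 intervals lay within 1.5-fold.

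CCNC, whose product activates both kinases, was uneven among tumors (A_23_P145397; gene at chr6:99542387-99568814). It read -0.09, -0.26 and -0.47 with vector, -0.16, -0.15 and -0.25 with MOAP-1 and -0.27, -0.42 and -0.24 with RASSF1A. The K264R tumors gave 0.27, -0.12 and 0.31, and K278R tumor 3 (0.19) stood above its other tumors (-0.42 and -0.50). The change was 0.09 with MOAP-1 (95% interval -0.28 to 0.46) and 0.43 with K264R (95% interval 0.05 to 0.80, adjusted p = 0.0707). Against RASSF1A CCNC was 0.46 higher with K264R (adjusted p = 0.0481), or 1.38-fold, and was not called.

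MED13, which anchors the module to Mediator, was lower in the MOAP-1 tumors without reaching 1.5-fold (A_33_P3223759; gene at chr17:61942605-62065278). It read 1.29, 1.33 and 1.08 with vector and 0.67, 0.78 and 0.58 with MOAP-1, without overlap, as in 23.5% of probes in that direction. The log2 change was -0.55 (standard error 0.20, adjusted p = 0.0469), or 1.47-fold lower. With the median of each array set to 0, which shifts the median of all probes to -0.13, it was -0.70 and called (adjusted p = 0.0177). With array brightness as a covariate it was -0.42 without a call (limma, adjusted p = 0.166). Before scaling to the array, the processed signals were 1543, 1604 and 1620 with vector and 1538, 1373 and 1528 with MOAP-1. With any 1 tumor left out the adjusted p was 0.0511 to 0.133. The K264R tumors gave 1.46, 0.56 and 1.23 and the K278R tumors 0.66, 1.23 and 0.94, both overlapping with vector.

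MED13L, the paralog of MED13, showed no call with any construct (A_23_P47991; gene at chr12:115958576-116277693). It read -0.59, -0.32 and -0.48 with vector, -0.27, -0.60 and -0.59 with MOAP-1 and 0.02, -0.58 and -0.02 with K264R. K278R gave -0.17, -0.31 and -0.21 and RASSF1A -0.18, -0.01 and -0.39. The change was -0.03 with MOAP-1 (95% interval -0.37 to 0.32), 0.27 with K264R (adjusted p = 0.214), 0.23 with K278R (adjusted p = 0.310) and 0.27 with RASSF1A (adjusted p = 0.509). The K278R tumors lay above all vector tumors, as in 23.7% of probes in that direction.

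Slide and construct were nearly nested. Each K264R tumor lay on a slide of its own group, and only 2 slides joined constructs. On the slide that held MOAP-1 tumor 2 and the K278R tumors, CDK8 at its first probe was 0.70 higher with MOAP-1, its second probe 0.32 higher and MED12 0.15 higher. On the slide that held RASSF1A tumor 3 and the vector tumors the differences were 0.13, 0.01 and 0.11. Every other pair of constructs shared no slide, so that slide and construct cannot be told apart there. This holds for MOAP-1, K264R and K278R against vector and against RASSF1A, and for K264R against MOAP-1 and K278R.

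The genes most like each CDK8 probe were found by the root mean square difference of centered log2 signals over the 15 tumors, among 21645 probes that RefSeq names and that were well above background throughout. The 3 nearest to the first probe were PPHLN1 (0.0886), WTAP (0.101), a subunit of the RNA methyltransferase that writes m6A, and THUMPD2 (0.102). The median over all probes was 0.610. The other members ranked far lower: MED12 was at place 3549 (0.454), CCNC 3958, CDK19 9027, MED13L 10639 and MED13 17836. For the second probe the nearest was TOPBP1 (0.0951), a scaffold of the DNA replication checkpoint. IPO11 (0.0967), LARP4 (0.0994), EIF2B3 (0.102) and STX17 (0.102) came next, against a median of 0.285. Of the other members CDK19 was at place 895 (0.168) for this probe, MED12 4770, CCNC 11465, MED13L 13433 and MED13 15251.

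The 26 core subunits of Mediator in the head, middle and tail were set beside the module, each at its brightest probe. With MOAP-1 6 of 26 rose and none fell against vector, with K264R 6 rose and 1 fell, with K278R 5 rose and none fell, and with RASSF1A none was called. Over all probes 9.92%, 9.25% and 7.71% were called higher with MOAP-1, K264R and K278R, and 6.69%, 10.2% and 3.2% lower. Leaving out K278R tumor 1 or 3 or vector tumor 1 or 2 gave 3 called with K278R, and leaving out RASSF1A tumor 3 gave 4 with RASSF1A. The median change of the 26 genes was 0.09 with MOAP-1 and 0.12 with K264R, against 0.02 and -0.05 over all probes. Between MOAP-1 and RASSF1A 6 were higher and none lower, against 13% and 8.14% of all probes. Counted at any of their kept probes, 9 of 26 were higher with MOAP-1, 8 with K264R and 8 with K278R. A gene with several probes has more chances of a call, so that the shares of probes above are no background for these counts. No share of all genes counted this way is given here.

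MED28, a core subunit, was a spot near background. It read -4.05, -4.33 and -4.41 with MOAP-1, -4.39, -4.52 and -4.37 with K264R and -4.91, -5.07 and -4.69 with K278R. The vector tumors gave -6.62, -6.89 and -5.48 and the RASSF1A tumors -6.29, -6.41 and -6.18. Vector arrays 1 and 2 were not well above background for this probe, so that its change of 2.07 from vector with MOAP-1 rests on 1 measured vector array. Against RASSF1A, where all arrays were well above background, it was 2.03 higher with MOAP-1 (adjusted p = 0.000114). MED27 rose by 1.06 with MOAP-1, 1.20 with K264R and 0.92 with K278R. MED10, a middle subunit, rose by 1.02, 0.94 and 0.90, and MED6, a head subunit, by 0.97, 0.83 and 0.78.

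MED1, the subunit that nuclear receptors contact, rose by 0.78 with MOAP-1, 1.02 with K264R and 1.42 with K278R at its brightest probe, and its other probe gave 0.53, 0.36 and 0.57 without a call. The list also held MED23 (0.60 with MOAP-1, but 0.15 and 0.11 at its other probes), MED20 (0.71 with K264R and 0.67 at its other probe, which was called with MOAP-1 and K278R too) and MED11, a head subunit that fell by 0.68 with K264R. MED8 and MED18, head subunits, were not called at their brightest probes, but their other probes were higher with MOAP-1 (1.23 and 0.91), K264R (1.14 and 0.92) and K278R (0.95 and 0.89), all called. MED15, a tail subunit, was 1.04 higher with MOAP-1 than with RASSF1A and 0.45 higher than with vector, the latter without a call. The counts of called core genes changed most under normexp, to 0 with MOAP-1, K264R and K278R. With array brightness as a covariate they were 5, 3 and 4.

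**Figure D4:**
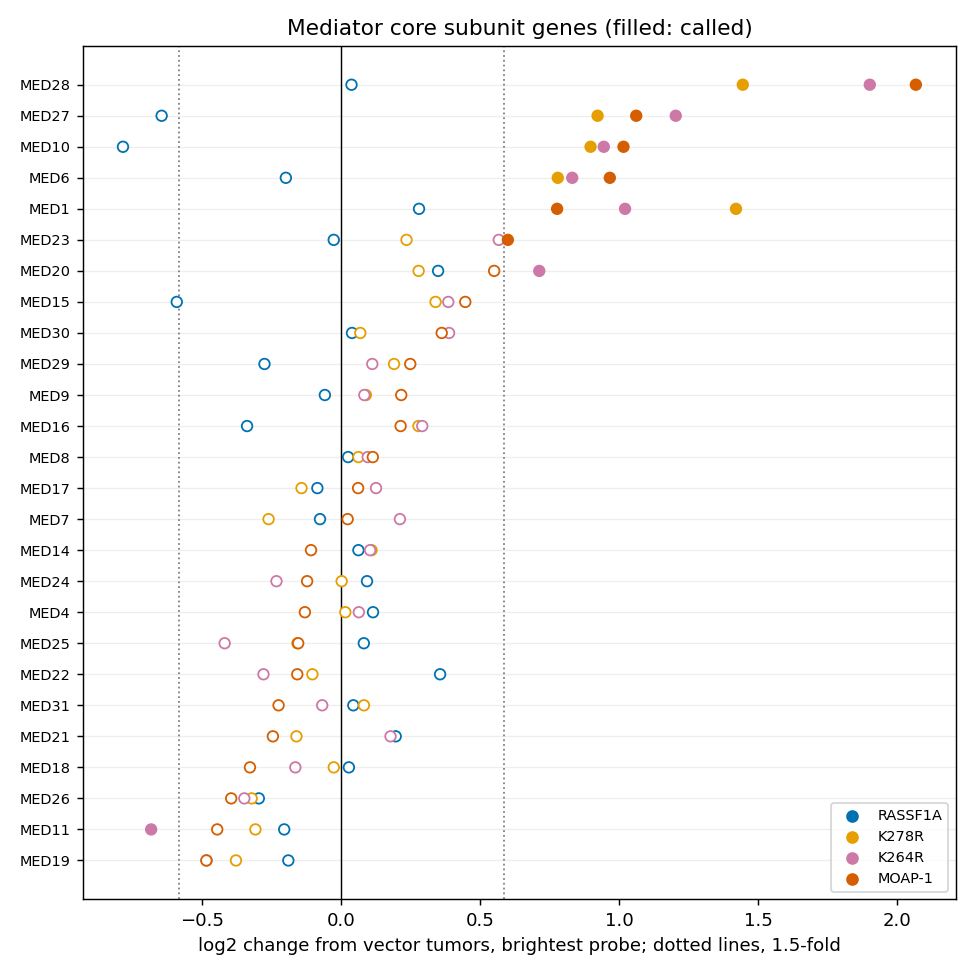
Log2 change from the vector tumors (horizontal axis) of the 26 Mediator core subunit genes at their brightest probe, ordered by the change with MOAP-1; filled points are called and dotted lines mark 1.5-fold. MED28 lies at 2.07, 1.90 and 1.44 with MOAP-1, K264R and K278R and at 0.04 with RASSF1A, against a vector group with 2 of 3 arrays not well above background for it, and most genes lie between the dotted lines.

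The next 3 lists were counted at the brightest probe of each gene too, and the shares of all probes called higher and lower are those given for the Mediator core. Of 12 genes of other transcription kinases, with their cyclins and regulators, 1 fell with MOAP-1, where 6.69% of all probes did, and none rose: CCNT1, the cyclin partner of CDK9, at -0.78 (adjusted p = 0.0111). With K264R CCNT1 (-1.28) and CCNK (-0.66), the cyclin of CDK12 and CDK13, fell, and CCNT2 (0.92), another CDK9 cyclin, rose. The other CCNK probe gave 0.48, without a call, and 1 of the dimmer probes of CDK13 was called at -0.59. With K278R CDK7, the kinase of TFIIH, fell by 0.60. Among 8 kept genes whose products the module binds or phosphorylates or that turn it over, NOTCH1 was lower at its brightest probe with MOAP-1 (-1.18), K264R (-1.34) and K278R (-1.05), but its other probe was higher (0.96, 0.89 and 0.72, all called), so that no direction can be given for the gene. SMAD1, a BMP signal transducer, fell by 0.62 with MOAP-1. The other probe of CTNNB1, the gene of beta-catenin, was called higher with MOAP-1, K264R and K278R (0.94, 0.80 and 0.78; 0.42, 0.35 and 0.34 at the brightest), and that of SREBF1, a regulator of lipid synthesis, lower (-0.86, -0.94 and -0.72; -0.19, 0.01 and 0.04 at the brightest).

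Of 13 kept genes known as beta-catenin targets, 1 rose at its brightest probe with MOAP-1 and with K264R, where 9.92% and 9.25% of all probes did, and none was called with K278R. SOX9, a transcription factor of the colon crypt, rose by 0.95 with MOAP-1 (adjusted p = 0.00343) and by 1.04 with K264R (adjusted p = 0.00153). Between MOAP-1 and RASSF1A CCND1, the gene of cyclin D1, was 1.23 higher and SOX9 1.06 higher. The other probe of AXIN2, an inhibitor of the Wnt pathway that beta-catenin induces, was called higher with MOAP-1 (1.63), K264R (1.43) and K278R (1.23), whereas its brightest gave -0.02, -0.08 and 0.26. ZNRF3, a ubiquitin ligase that removes Wnt receptors, was called higher at its other probe with MOAP-1 (0.68) and K264R (0.82), whereas its brightest gave -0.33 and -0.29. At any kept probe 3 of the 13 genes were thus higher with MOAP-1, 3 with K264R and 1 with K278R, counts for which the shares of probes are no matching background. The median change of the 13 genes was 0.08 with MOAP-1 and -0.05 with K264R, against 0.02 and -0.05 over all probes.

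Across the processing alternatives, CDK8 at its first probe lost its call with MOAP-1 under normexp and under no other of the 16 run, nor without any 1 tumor. MED12 fell below the 1.5-fold limit with MOAP-1 under several of them, and MED13 was called with the median of each array set to 0.

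**Figure D5:**
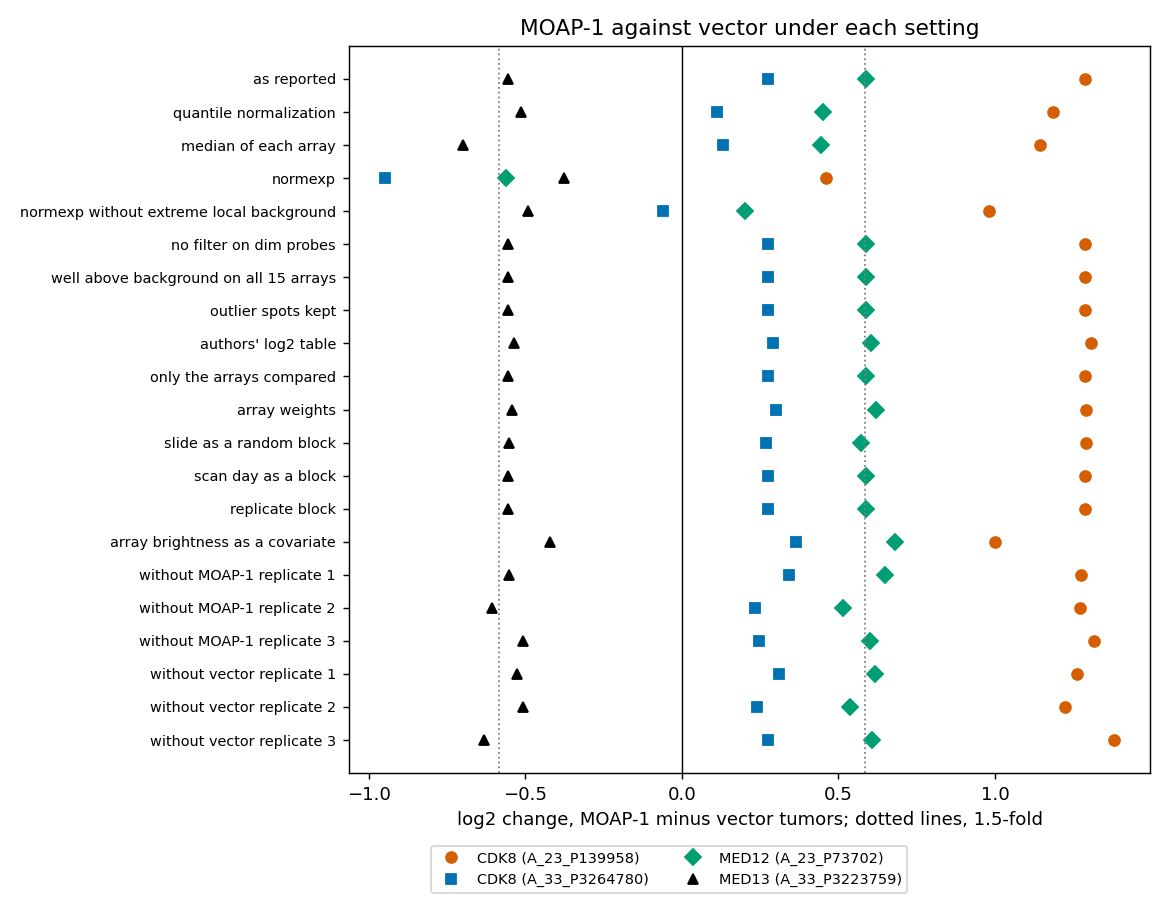
Log2 change between MOAP-1 and vector tumors (horizontal axis) under each processing setting and with each tumor left out (rows) for both CDK8 probes, MED12 and MED13; dotted lines mark 1.5-fold. CDK8 at A_23_P139958 stays between 0.46 and 1.38, with its lowest value under normexp, where MED12 moves to -0.56.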

How the data were processed

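RNA of 15 tumors was read on single-color Agilent arrays. The authors deposited the Feature Extraction output of each array, and its processed signal, a spot intensity that the software had corrected for background, was used here; arrays were not normalized to each other at that step. The version is 9.1 per the labels and 10.5.1.1 per the file headers. A GeneSpring table of normalized log2 values, which the authors deposited as well, served as an alternative. Control and outlier spots were removed, log2 intensities were set relative to the 75th percentile of each array, and spots of 1 probe were averaged. A probe was kept if all 3 tumors of some construct were well above background (30585 of 34127). RefSeq accessions named 25422 probes (74.5%) through the GRCh38.p14 gene table. The fit used limma 3.58.1 (R 4.3.3) on the 15 arrays together, with construct as the only term and 10 residual degrees of freedom, and a call needed an adjusted p below 0.05 and 1.5-fold. Probe pairs of 1 gene were fitted likewise as differences from the brightest probe. The fits were tested on simulated data. The number of arrays, 3 per construct, limits the precision.

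Named genes were all member probes, MOAP1 and RASSF1, up to 4 called genes with the largest change per list and comparison, and the 5 genes nearest to each CDK8 probe. Some of the genes nearest to the first CDK8 probe are not reported here. MED8, MED11, MED15, MED18, MED20, MED23, MKI67, CCNB1, MCM2 and cases of probes that disagree were named beyond that rule after their values were seen. The members and lists were chosen with earlier results of these data known. Replicate numbers were checked for pairing by the correlation of same-numbered deviations (-0.25 to 0.37), and not every pair of any comparison passed 0.1. Alternatives covered normalization, background, filters, outlier spots, the authors' table, the arrays fitted, array weights, slide, scan day, replicate number and the methods' t-test. Array brightness as a covariate was added after seeing the data.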

Additional observations from a re-analysis of the deposited data

How the results depend on the processing

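CDK8 at A_23_P139958 kept its call with MOAP-1 against vector in 15 of 16 alternatives, with log2 changes of 0.46 (normexp, adjusted p = 0.215) to 1.31, and with K264R in 15 of 16, with 0.55 (normexp, adjusted p = 0.462) to 1.28. With the local background model normexp the number of member probes called was 0 with MOAP-1, 0 with K264R, 0 with K278R and 0 between MOAP-1 and RASSF1A, and 0 passed the moderated F. MED12 with MOAP-1 reversed to -0.56 and CDK8 with K278R to -0.063, both without a call. Normexp without 17 spots of extreme local background on 3 arrays left 1 with MOAP-1, 0 with K278R and 1 between MOAP-1 and RASSF1A. Normexp shifted the median change of all probes with MOAP-1 to -0.53, and to -0.15 without those spots. The number called with MOAP-1 was 1 with quantile normalization and 1 with slide as a random block. With K278R it was 0 with quantile normalization, 0 with the array median, 0 with only the arrays compared and 0 by the methods' t-test, before and after adjustment, and 2 with the authors' log2 table. Between MOAP-1 and RASSF1A it was 1 with quantile normalization and 1 with scan day as a block. Leaving out 1 tumor gave 1 to 2 probes with MOAP-1 (1 without MOAP-1 tumor 2 or vector tumor 2), 1 to 1 with K264R, 0 to 2 with K278R (0 without vector tumor 2, 2 without vector tumor 3), 1 to 2 between MOAP-1 and RASSF1A (1 without MOAP-1 tumor 2 or RASSF1A tumor 1) and 0 to 1 between MOAP-1 and K278R. The number past the moderated F was 2 to 4, the latter without K264R tumor 2.

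The difference between the CDK8 probes was -1.41 with MOAP-1 (adjusted p = 0.124), -1.04 with K264R (adjusted p = 0.328) and -0.83 between MOAP-1 and RASSF1A (adjusted p = 0.313) under normexp. With scan day as a block the last was -0.89 (adjusted p = 0.0894), and with array brightness as a covariate it was -0.53 (adjusted p = 0.0111, below 1.5-fold) and that with K264R -0.50 (adjusted p = 0.101). With K278R it was -0.80 with array weights and called (adjusted p = 0.0101). Leaving out 1 tumor gave -1.10 to -0.93 with MOAP-1, -1.35 to -1.19 with K264R, -0.96 (without K278R tumor 2, adjusted p = 0.00166) to -0.36 with K278R and -0.90 to -0.73 between MOAP-1 and RASSF1A. With the replicate number as a block CDK8 with MOAP-1 was 1.29 (adjusted p = 0.000577) and 2 member probes were called, and the block changed no call of a member probe. The cause of these shifts was not tested. CDK8 at A_33_P3264780 and MED12 passed the background test on all 15 arrays but were dim spots.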
